A study of Saccharomyces cerevisiae with 10 samples.

Results

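The 9 small nucleolar RNAs (snoRNAs) described here, snR18, snR24, snR38, snR39, snR39B, snR44, snR54, snR59 and snR191, are snoRNAs listed as being cut out of introns. They were taken by name from a table of 10891 features that holds 76 snoRNA rows. In the RefSeq annotation of R64, the build named in the submitters' processing notes, 8 of the 9 lie inside an intron of a protein-coding gene on the same strand, against 0 of the other 67 snoRNA rows. The exception is snR39B, which lies in no annotated intron but 377 bases upstream of RPL7A on the same strand, so its annotation goes against the listing. Of the 9, 7 are box C/D snoRNAs of 78 to 102 bases and 2, snR44 and snR191, are box H/ACA snoRNAs of 211 and 274 bases.

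Box C/D snoRNAs guide the methylation of ribosomal RNA by Nop1, and box H/ACA snoRNAs guide the conversion of uridine to pseudouridine by Cbf5. An intronic snoRNA is freed when its host transcript is spliced and the debranching enzyme Dbr1 opens the lariat, after which the 5' to 3' exonucleases Rat1 and Xrn1 trim its front end and the nuclear exosome its back end. Mtr4 is an RNA helicase that works with the nuclear exosome, Xrn1 acts mostly on RNA in the cytoplasm, and Dbp2 is a DEAD-box RNA helicase.

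Stranded libraries of total RNA, depleted of ribosomal RNA, form 5 groups of 2 libraries, which the series' design text calls biological replicates. The xrn1 group (xrn1Δ::kanMX4) and its WT share the BY4741 background, with his3Δ1, leu2Δ0, met15Δ0 and ura3Δ0. The dbp2 group (dbp2Δ::KanMX6) is also labelled BY4741, but with his3Δ0, leu2Δ0 and ura3Δ0 and with the markers written as met- and lys?. The tet-MTR4-Dox group has MTR4 under a tetOFF promoter marked with kanMX6, and both it and WT-Dox are BMA64-1A, which carries trp1Δ2 and can1-100 beside ade2-1, ura3-1, the paired alleles his3-11 and his3-15 and the paired alleles leu2-3 and leu2-112. Both of these groups received doxycycline at 10 µg/mL for 6 hours in mid-log culture, xrn1, dbp2 and WT received none, and all cells are MATa. The comparisons ask how the level of each RNA differs without Xrn1, without Dbp2, or after MTR4 is shut off.

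Sequences are shown for the snoRNAs on which the results turn, 5' to 3' on the strand of the gene, from the RefSeq R64 genome. The closely related snR39 (chrVII:365163-365251, minus strand, intron 2 of the 2 in RPL7A) and snR59 (chrXVI:173827-173904, plus strand, intron 2 of the 2 in RPL7B), together with snR39B (chrVII:366374-366469, minus strand), are shown for the guide region they share. Their changes in tet-MTR4-Dox were large, but so were those of snR54 and snR38, whose antisense runs differ. snR24 (chrXIII:499984-500072, minus strand, in the intron of ASC1) is the box C/D RNA that changed least there, and snR191 (chrXIV:721938-722211, minus strand, in the intron of NOG2) is the most abundant of the 9 per base in WT and the one with the largest change in dbp2 against WT. Capitals mark a box C match (NTGATGA within the first 20 bases) and a box D match (CTGA within the last 20), or in snR191 the letters ACA placed 3 bases from the end, all searched on the gene's strand only.
snR39: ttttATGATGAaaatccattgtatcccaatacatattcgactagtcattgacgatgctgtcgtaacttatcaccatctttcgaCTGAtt
snR59: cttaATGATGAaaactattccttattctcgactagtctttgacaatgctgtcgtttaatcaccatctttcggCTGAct
snR39B: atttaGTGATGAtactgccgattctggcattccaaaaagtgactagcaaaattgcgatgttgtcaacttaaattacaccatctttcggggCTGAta
snR24: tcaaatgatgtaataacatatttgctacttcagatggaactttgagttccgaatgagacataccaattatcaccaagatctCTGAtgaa
snR191: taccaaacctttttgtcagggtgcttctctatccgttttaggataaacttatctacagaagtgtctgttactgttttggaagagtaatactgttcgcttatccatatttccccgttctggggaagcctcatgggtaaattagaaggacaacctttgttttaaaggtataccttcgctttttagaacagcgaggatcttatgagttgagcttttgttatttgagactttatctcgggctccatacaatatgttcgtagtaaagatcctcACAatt
Box C in this form was found in 6 of the 7 box C/D members, with snR24 the exception, and in 37 of all 76 snoRNA genes (48.7%). The box D letters were in 7 of 7 and in 47 of all 76 (61.8%), and ACA at that place in 1 of the 2 box H/ACA members and in 17 of 76 (22.4%).

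RefSeq names 25S A807 as the methylation target of both snR39 and snR59, and G805 for snR39B. Just before box D, snR39 holds tcaccatctttcg, snR59 tcaccatctttcgg and snR39B caccatctttcggg, each an unbroken antisense run to the 25S rRNA around that base. Aligned over their whole length, snR39 and snR59 were identical in 74.4% of columns and snR39 and snR39B in 68.3%. The same search found runs for snR24 (caccaagatct, target C1437) and snR38 (cagttatccctgt, target G2815) in 25S, and for snR54 (taactttcgttct, target A974) in 18S. In 6 of the 7 box C/D members a named target paired with base 5 upstream of a CTGA, and snR18 (ttggtccgtgttt, targets A649 and C650) was the exception. The named targets of the box H/ACA pair are the uridines U1056 and U106 for snR44 and U2258 and U2260 for snR191. The other members lie in introns of EFB1 (snR18, chrI:142367-142468, plus strand), TEF4 (snR38, chrXI:283185-283279, plus strand), IMD4 (snR54, chrXIII:163535-163620, minus strand) and RPS22B (snR44, chrXII:856710-856920, plus strand), and the 8 host introns are 273 to 532 bases long.

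Between 16.0 and 33.5 M reads were counted per library, and ERCC spike-in RNAs took 1.35% to 3.14% of them. Values are the deposited normalized densities, in arbitrary units per base of the feature, and the scaled ERCC sums of the 10 libraries lie within 3.29% of each other, so a fold change is read as a change per spike-in RNA. Whether this is also a change per cell was not tested. The targeted genes matched the labels: XRN1 was at 0.102 and 0.106 in xrn1 and 2.49 and 2.28 in WT, DBP2 at 0.00313 and 0.00326 in dbp2 and 3.49 and 3.41 in WT, and MTR4 at 0.429 and 0.469 in tet-MTR4-Dox and 1.49 and 1.30 in WT-Dox. Strain markers differed within the pairs too. LYS2 was at 0.000502 and 0.000349 in dbp2 and 1.10 and 0.999 in WT, MET17 (the gene of met15) at 1.75 and 1.64 in dbp2 and 0.00125 and 0.000477 in WT, and TRP1 at 0.129 and 0.128 in tet-MTR4-Dox and 0 and 0.00069 in WT-Dox, so these strain differences cannot be told apart from the mutations. The median protein-coding gene changed by 1.84 on the log2 scale in xrn1 against WT, by 0.77 in dbp2 against WT and by 0.81 in tet-MTR4-Dox against WT-Dox. A change called relative below comes from a fit in which each library was first rescaled on its median protein-coding gene. All p-values are limma's, adjusted by Benjamini-Hochberg over 9666 features, with a call at an adjusted p under 0.05, and an exact permutation test of 2 libraries against 2 could not give a two-sided p below 0.333.

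Per base, the box H/ACA pair was the most abundant of the 9 in WT. snR191 averaged 33.6 ± 0.807, snR44 26.1 ± 1.90 and snR18 7.97 ± 0.526 (SD, n = 2 each). These were followed by snR39 at 3.02 ± 0.237, and by snR24 at 2.57 ± 0.0432, snR39B at 2.57 ± 0.0370, snR54 at 2.46 ± 0.215 and snR38 at 2.18 ± 0.316. The WT values of snR24, snR39B, snR54 and snR38 overlapped at each step of that order, while the ranges of the others were apart. snR59 was lowest, at 0.495 ± 0.0729, and rests on only 46 and 49 reads in the WT libraries, read back from the densities. In tet-MTR4-Dox the order was another one, with snR39B first and snR24 last. Over all 76 snoRNA rows the WT density ran with the length of the gene (Spearman's rho 0.763, a description over RNAs of the same libraries), and the part of library preparation from short RNAs in these levels was not tested.

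**Figure D1:**
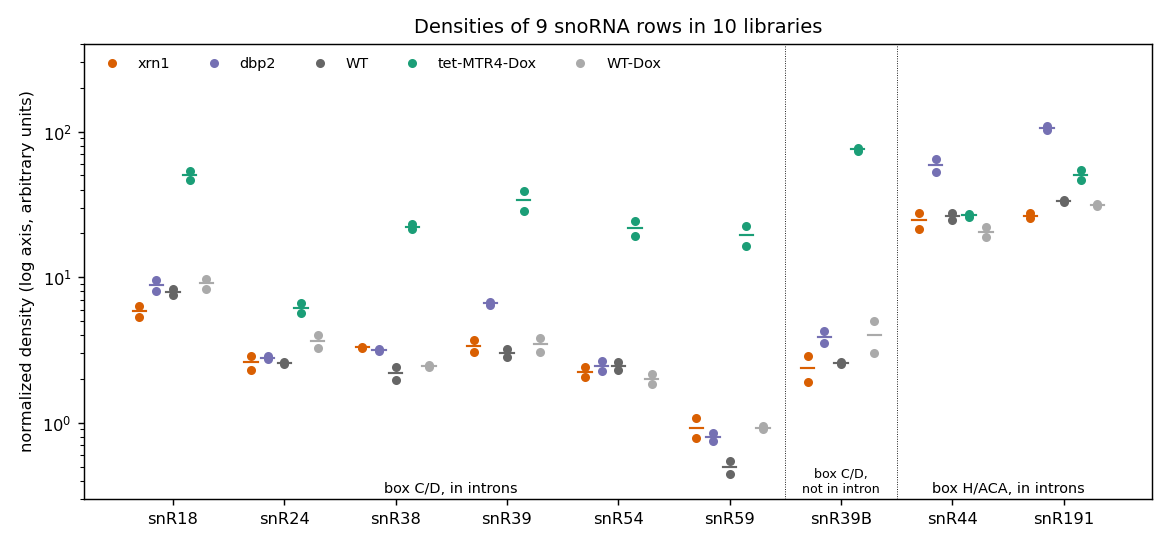
Normalized density (log axis, arbitrary units per base) of the 9 snoRNA rows in each library, 2 points per group with a line at their mean. The tet-MTR4-Dox points of 6 box C/D rows stand far above all other groups, while snR44 and snR191 are highest in dbp2.

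All 9 rose in tet-MTR4-Dox against WT-Dox, but the box C/D and box H/ACA members differed widely in how much. Of all features tested, 91.4% were called higher there and 3.26% lower, so the share of members called was near the background. The 7 box C/D members rose by 0.76 to 4.34 on the log2 scale (median 3.27), against 0.39 and 0.67 for the box H/ACA pair and a median of 1.27 over all features. Both tet-MTR4-Dox libraries lay above both WT-Dox libraries in 9 of 9, as in 92.7% of all features. A snoRNA row counts reads over the snoRNA gene, where mature RNA, longer precursors and host intron RNA were not told apart. Their parts in these rises, and in the changes of the other comparisons, were not tested. The part of library preparation from short RNAs was not tested for these changes either.

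Among the RNAs with the shared guide region, snR59 had densities of 22.4 and 16.4 in tet-MTR4-Dox and 0.954 and 0.900 in WT-Dox, a 20.3-fold rise (log2 4.34 ± 0.166 SE, limma adjusted p = 6.6e-10). Behind these densities stand 1206 and 1223 reads in tet-MTR4-Dox and 73 and 87 in WT-Dox. Its relative snR39 was at 39.1 and 28.4 in tet-MTR4-Dox and 3.08 and 3.85 in WT-Dox, or 9.63-fold higher (log2 3.27 ± 0.149, limma adjusted p = 2.5e-09). snR39B, the one outside an intron, was at 76.9 and 74.0 in tet-MTR4-Dox and 3.01 and 5.01 in WT-Dox (19.3-fold, log2 4.27 ± 0.218, limma adjusted p = 6.2e-09). None of the 3 had overlapping groups, and the tet-MTR4-Dox libraries of snR39 and snR59 differed more from each other than those of snR39B.

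Of the other box C/D members, snR54, a guide for 18S, was at 24.5 and 19.1 in tet-MTR4-Dox and 2.16 and 1.84 in WT-Dox (10.8-fold, log2 3.43 ± 0.132, limma adjusted p = 7e-10). snR38 was at 23.1 and 21.3 in tet-MTR4-Dox and 2.40 and 2.48 in WT-Dox (9.03-fold, log2 3.18 ± 0.0835, limma adjusted p = 6.9e-11). snR18 was at 53.7 and 46.8 in tet-MTR4-Dox and 8.33 and 9.79 in WT-Dox (5.54-fold, log2 2.47 ± 0.116, limma adjusted p = 3.2e-09). These values too were far apart between the groups. snR24, at 6.65 and 5.67 in tet-MTR4-Dox and 3.27 and 4.02 in WT-Dox, rose only 1.69-fold (log2 0.76 ± 0.118, limma adjusted p = 8.2e-05), and this was the smallest change of all 47 box C/D snoRNA rows.

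The box H/ACA pair changed little. snR191 was at 54.3 and 46.3 in tet-MTR4-Dox and 31.0 and 31.9 in WT-Dox (1.59-fold, log2 0.67 ± 0.0826, limma adjusted p = 1.2e-05). snR44 was at 26.0 and 27.2 in tet-MTR4-Dox and 18.8 and 22.0 in WT-Dox (1.31-fold, log2 0.39 ± 0.134, limma adjusted p = 0.017). The call of snR44 was lost without WT-Dox replicate 1 (adjusted p = 0.125) or tet-MTR4-Dox replicate 2 (adjusted p = 0.0725). Its change was the smallest of the 29 box H/ACA rows, and that of snR191 the 4th smallest. Relative to the median protein-coding gene, snR18, snR38, snR39, snR39B, snR54 and snR59 remained higher (1.65 to 3.53), snR44 was lower (-0.43, limma adjusted p = 0.021), and snR24 (-0.06) and snR191 (-0.15) passed in neither direction. On that scale 63.6% of all features were called higher and 23.6% lower. Rescaled on the other 67 snoRNA rows, snR39, snR39B, snR54 and snR59 were higher (26.8% of all features) and snR24, snR44 and snR191 lower (59%).

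**Figure D2:**
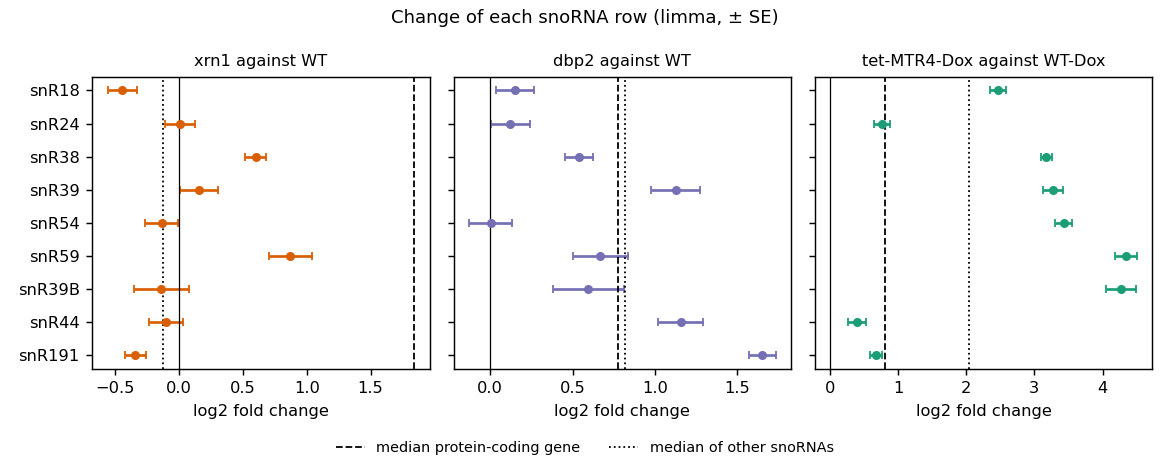
Log2 fold change of each snoRNA row in the 3 mutant comparisons, with bars for the limma SE, and with the median protein-coding gene (dashed) and the median of the other 67 snoRNA rows (dotted). In tet-MTR4-Dox snR24, snR44 and snR191 lie below the other snoRNAs' median of 2.04, and in xrn1 all 9 lie below the protein-coding median of 1.84.

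Set beside the other snoRNAs, grouped from general knowledge of their genes, the members lay within the ranges of the other rows of their box type in tet-MTR4-Dox, except snR24 and snR44, which lay below them. The 23 box C/D snoRNAs with genes of their own rose by a median of 4.28 (1.32 for snR68 to 6.66 for snR58), and the 17 from polycistronic transcripts by 2.99 (1.08 for snR75 to 5.80 for snR53), against 3.22 for the 6 box C/D members in introns. The 27 box H/ACA snoRNAs with genes of their own rose by a median of 1.63 (0.63 for snR86 to 2.58 for snR161), against 0.53 for snR44 and snR191. All 67 other snoRNAs were called higher in tet-MTR4-Dox, and 64 of them also relative to the median protein-coding gene.

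**Figure D3:**
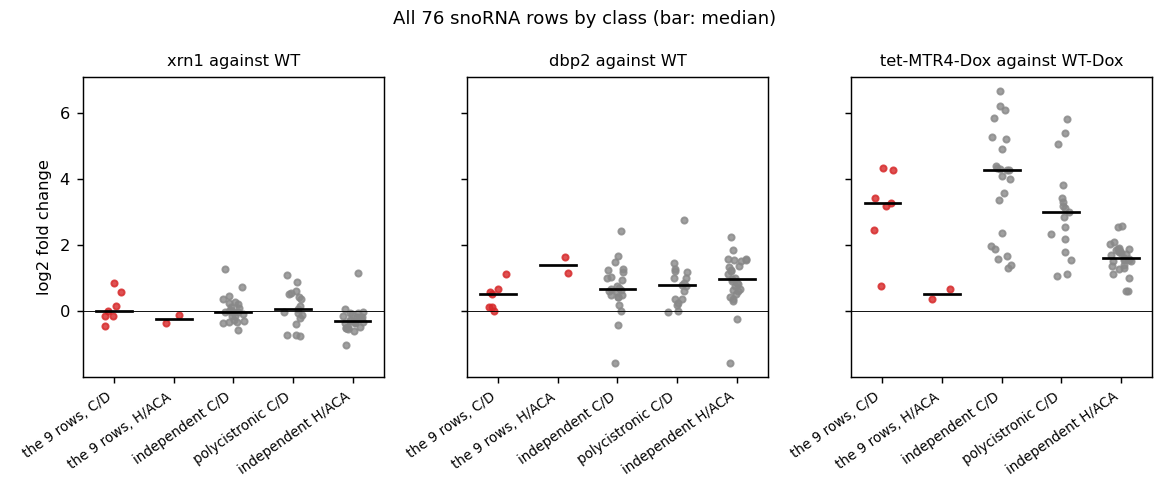
Log2 fold change of all 76 snoRNA rows by class, 1 point per row (red for the 9 members, grey for the others), with a bar at each class median. In tet-MTR4-Dox the box C/D classes spread from 0.76 to 6.66 and the box H/ACA classes from 0.39 to 2.58.

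The change in tet-MTR4-Dox also ran with length over the 76 rows (Spearman's rho -0.655), within the 47 box C/D rows (-0.278) and within the 29 box H/ACA rows (-0.59). These are descriptions over RNAs of the same libraries. At 89 bases, snR24 and snR39 have the same length, and their rises were 1.69- and 9.63-fold. snR191 at 274 bases and snR44 at 211 bases are within the length range of the other box H/ACA RNAs, which runs from 161 to 1004.

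**Figure D4:**
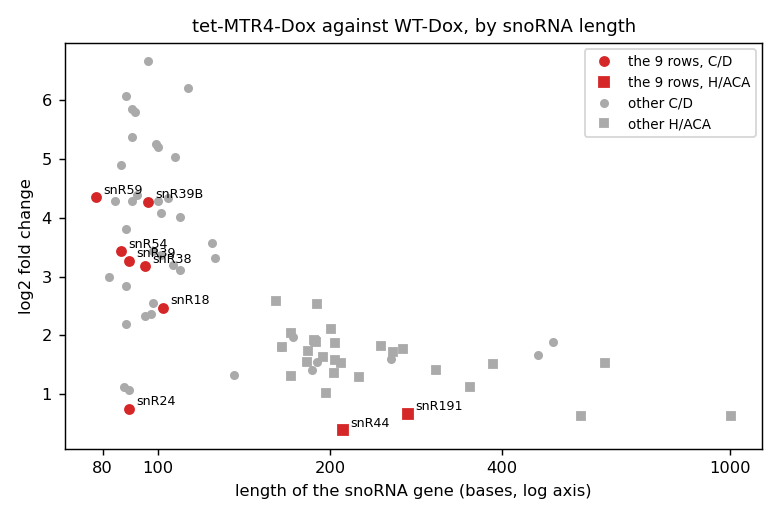
Log2 fold change in tet-MTR4-Dox against WT-Dox by the length of the snoRNA gene (log axis), circles for box C/D and squares for box H/ACA, the 9 members in red. snR24, snR44 and snR191 lie near the lower edge at their lengths.

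In dbp2 against WT the box H/ACA pair and snR39 rose most. 6 of the 9 were called higher and 0 lower, with a median of 0.60, while of all features 84.7% were called higher and 5.28% lower, with a median of 0.81. snR191 was at 108.6 and 102.7 in dbp2 and 32.99 and 34.13 in WT (3.15-fold, log2 1.65 ± 0.0826, limma adjusted p = 2.2e-08). snR44 was at 64.6 and 52.5 in dbp2 and 24.8 and 27.5 in WT (2.23-fold, log2 1.16 ± 0.134, limma adjusted p = 1e-05). snR39 was at 6.75 and 6.48 in dbp2 and 2.85 and 3.19 in WT (2.19-fold, log2 1.13 ± 0.149, limma adjusted p = 3e-05). In all 3 the dbp2 libraries lay well above the WT libraries. The change of snR191 was the third largest of the 29 box H/ACA rows.

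Smaller rises in dbp2 were those of snR59, at 0.846 and 0.745 in dbp2 and 0.546 and 0.443 in WT (1.59-fold, log2 0.67 ± 0.166, limma adjusted p = 0.0029), and of snR38, at 3.21 and 3.12 in dbp2 and 1.96 and 2.41 in WT (1.45-fold, log2 0.54 ± 0.0835, limma adjusted p = 1e-04). snR39B was at 4.26 and 3.56 in dbp2 and 2.60 and 2.54 in WT (1.51-fold, log2 0.60 ± 0.218, limma adjusted p = 0.023). That last call was lost without WT replicate 1 (adjusted p = 0.0687), WT replicate 2 (0.0816) or dbp2 replicate 1 (0.132). The remaining 3 did not pass, with snR18 at 9.60 and 8.10 in dbp2 and 7.59 and 8.34 in WT, snR24 at 2.87 and 2.73 in dbp2 and 2.54 and 2.60 in WT, and snR54 at 2.67 and 2.26 in dbp2 and 2.31 and 2.61 in WT (log2 0.15, 0.12 and 0.00, limma adjusted p = 0.24, 0.34 and 0.99). The groups of snR18 and snR54 overlapped, and the dbp2 libraries of the other 7 lay above those of WT, as in 88.2% of all features, with 6.7% below.

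Most of the rise in dbp2 was no larger than that of the median protein-coding gene. On the relative scale snR191 was called higher (0.83, limma adjusted p = 3.8e-05), with 45.1% of all features, and 4 box C/D members were called lower, with 27.3%, namely snR18 (-0.67), snR24 (-0.69), snR38 (-0.28) and snR54 (-0.81). snR39 (0.31), snR44 (0.34), snR39B (-0.22) and snR59 (-0.13) passed in neither direction. The other 67 snoRNAs had a median of 0.82 in dbp2 before that rescaling, with 57 higher and 4 lower. Rescaled on these, no member was called higher (15.2% of all features) and 3 were called lower (20.6%), namely snR18, snR24 and snR54.

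Without Xrn1 the members changed little per spike-in RNA while nearly everything else rose. 2 of the 9 were called higher and 2 lower in xrn1 against WT, with a median of -0.10, while of all features 94.9% were called higher and 0.89% lower, with a median of 1.72. The other 67 snoRNAs had a median of -0.13, with 12 higher and 20 lower. Relative to the median protein-coding gene all 9 members were lower (-1.09 to -2.46), as were all 67 other snoRNAs and 36.4% of all features, while 37.8% of all features were higher. Rescaled on the other snoRNAs instead, snR38 and snR59 stayed higher and no member was called lower, with 96.3% of all features higher and 0.176% lower.

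The 2 that rose were snR59, at 1.07 and 0.784 in xrn1 and 0.546 and 0.443 in WT (1.83-fold, log2 0.87 ± 0.166, limma adjusted p = 0.00039), and snR38, at 3.34 and 3.27 in xrn1 and 1.96 and 2.41 in WT (1.52-fold, log2 0.60 ± 0.0835, limma adjusted p = 3.1e-05). On the relative scale both turned round, to -1.09 and -1.41. The 2 that fell were snR18, at 6.38 and 5.37 in xrn1 and 7.59 and 8.34 in WT (log2 -0.44 ± 0.116, limma adjusted p = 0.0036), and snR191, at 27.6 and 25.5 in xrn1 and 32.99 and 34.13 in WT (log2 -0.34 ± 0.0826, limma adjusted p = 0.0022). These 4 were the members whose groups did not overlap, 2 above and 2 below WT, while of all features 96.2% lay above WT without overlap and 1.3% below.

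The other 5 had overlapping groups and did not pass. snR24 was at 2.89 and 2.31 in xrn1 and 2.54 and 2.60 in WT, and snR39 at 3.68 and 3.08 in xrn1 and 2.85 and 3.19 in WT. snR39B was at 2.86 and 1.91 in xrn1 and 2.60 and 2.54 in WT, snR54 at 2.40 and 2.07 in xrn1 and 2.31 and 2.61 in WT, and snR44 at 27.8 and 21.4 in xrn1 and 24.8 and 27.5 in WT. Their log2 fold changes lay between -0.14 and 0.16, with limma adjusted p-values of 0.32 to 0.95.

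Most hosts changed by another amount than their snoRNAs, though the ratio of snoRNA to host overlapped between groups for snR44 over RPS22B in dbp2 and for snR39 over RPL7A in xrn1. A host row spans the whole gene with its introns, so reads of the snoRNA count in both rows, and the values here are for the host row with the snoRNA's reads and length taken out, a choice made after seeing the data. The rest of the introns stays in these values, as exons were not read apart from introns. The part of intron reads in the changes of the hosts was not tested. snR191 had held 73.1% and 75.1% of the reads of the NOG2 row in WT, and snR44 49.4% and 52.9% of those of RPS22B, whereas the box C/D snoRNAs held at most 2.56% of their hosts' reads there.

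In tet-MTR4-Dox against WT-Dox, the hosts of the box C/D snoRNAs mostly did not rise, while of all features 91.4% were called higher and 3.26% lower. ASC1 (log2 -1.56), a ribosome-bound protein and host of snR24, TEF4 (-0.68), an elongation factor subunit and host of snR38, IMD4 (-0.34), an enzyme of guanine nucleotide synthesis and host of snR54, and RPL7A (-0.21, limma adjusted p = 0.0089), a large-subunit ribosomal protein and host of snR39, fell. EFB1, an elongation factor subunit and host of snR18, was at -0.02 and did not pass (limma adjusted p = 0.76). RPL7B, the paralog of RPL7A and host of snR59, rose (0.98), and so did the hosts of the box H/ACA pair, RPS22B (1.54), a small-subunit ribosomal protein, and NOG2 (1.10), a GTPase of large-subunit assembly. With the libraries rescaled on the other snoRNA rows the whole rows of RPL7B, RPS22B and NOG2 turned to lower values, and on the protein-coding median that of NOG2 lay at -0.01. These whole rows include the snoRNA's reads. In the libraries of these groups snR191 held 63.5% to 71.6% of the NOG2 reads and snR44 29.6% to 53.6% of the RPS22B reads. The host values without snoRNA reads were not rescaled, so the whole rows do not show whether those rises would remain. How reads shared by the near-identical RPL7A and RPL7B were counted is not given in the sources used here.

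The ratio of snoRNA density to host density does not depend on the scaling between libraries. In tet-MTR4-Dox it was higher than in WT-Dox in 6 of the 8 pairs and lower in 2, with no overlap of groups in any. How often a snoRNA over an unrelated gene moved the same way was not tested, here or in dbp2 and xrn1 below. The other 67 snoRNAs also shifted relative to the median protein-coding gene. Of these, 64 were higher in tet-MTR4-Dox, 19 higher and 18 lower in dbp2, and 67 lower in xrn1. The mean ratio was 14.6 times that of WT-Dox for snR38, 13.8 for snR54, 11.4 for snR39, 10.5 for snR59, 5.64 for snR18 and 4.99 for snR24. snR24 over ASC1, for instance, was 0.326 and 0.382 in tet-MTR4-Dox and 0.0622 and 0.0797 in WT-Dox. The 2 lower ratios were those of the box H/ACA pair, snR44 over RPS22B at 2.55 to 3.27 in tet-MTR4-Dox and 5.89 to 7.01 in WT-Dox, and snR191 over NOG2 at 12.0 to 12.7 in tet-MTR4-Dox and 16.1 to 17.4 in WT-Dox.

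In dbp2 the ratio was higher than in WT in 7 of the 8 pairs, and snR44 over RPS22B overlapped. The mean ratio was 4.08 times that of WT for snR38 over TEF4 and 2.74 times for snR24 over ASC1, with both hosts falling (log2 -1.49 and -1.33). It was 2.25 times for snR59, 2.06 for snR39, 1.54 for snR54, 1.46 for snR191 and 1.18 for snR18. NOG2 (1.10) and RPS22B (1.00) rose in dbp2, IMD4 (-0.61) and RPL7B (-0.48) fell, and EFB1 (-0.09) and RPL7A (0.08) did not pass. Of all features 84.7% were called higher in dbp2 against WT and 5.28% lower.

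In xrn1 the ratio was lower than in WT in 7 of the 8 pairs, and snR39 over RPL7A overlapped. All 8 hosts rose per spike-in RNA, from 0.21 for RPL7A to 1.81 for IMD4, as did 94.9% of all features. Their whole rows were all lower relative to the median protein-coding gene (-0.22 to -1.81), with 36.4% of all features. The whole rows include the snoRNA's reads, and before that rescaling NOG2 rose by 0.55 as a whole row and by 1.76 without the reads of snR191. The mean ratio was 0.231 of WT for snR191 over NOG2 and 0.258 for snR54 over IMD4, and between 0.55 and 0.859 for the other 5 lower ones. snR191 over NOG2 was 4.39 to 4.75 in xrn1 and 18.7 to 20.8 in WT.

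**Figure D5:**
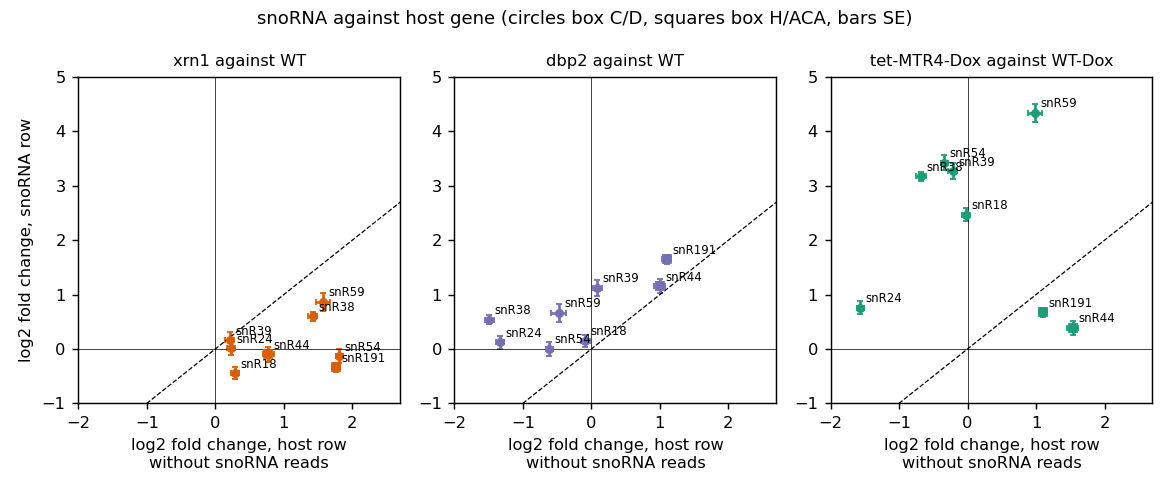
Log2 fold change of each intronic snoRNA (vertical) against that of its host row without the snoRNA's reads (horizontal), with SE bars, in the 3 mutant comparisons, circles for box C/D and squares for box H/ACA. On the dashed line both change alike. The box C/D points lie above it in tet-MTR4-Dox and snR44 and snR191 below, and in xrn1 all 8 points lie below.

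The mutants were also set against each other. The comparisons with MTR4 shut-off are differences between effects, each taken against its own control. Strain and doxycycline differ between their sides as well, and cannot be told apart from the mutations there. The effect of MTR4 shut-off minus the effect of dbp2 was above 0 for the 7 box C/D members, from 0.64 for snR24 to 3.68 for snR39B, and below 0 for snR44 (-0.77 ± 0.189, limma adjusted p = 0.004) and snR191 (-0.98 ± 0.117, limma adjusted p = 2.2e-05). All 9 were called, against 52.6% of all features higher and 15.8% lower, and rescaling on protein-coding genes left the calls and the directions of the 9 as they were, with 55.3% of all features higher and 17.4% lower. Rescaled on the other snoRNAs 5 members were higher and 3 lower, with 1970 of the 9666 features higher and 5610 lower. There snR24 turned to a lower call (-0.92, limma adjusted p = 0.0208) and snR39 lost its call (0.58, limma adjusted p = 0.141). The effect of MTR4 shut-off minus that of xrn1 was above 0 and called in all 9 (0.49 for snR44 to 4.41 for snR39B), with 30% of all features higher and 57.4% lower. Rescaled on the other snoRNAs 1 was higher (6.65% of all features) and 3 were lower (84%). The call of snR44 in it (limma adjusted p = 0.032) was lost without WT replicate 2, xrn1 replicate 2, WT-Dox replicate 1 or tet-MTR4-Dox replicate 2 (adjusted p = 0.0797 to 0.124).

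In dbp2 against xrn1, 5 members were called higher and 0 lower, with 8.92% of all features higher and 77.9% lower. They were snR191 (3.98-fold), snR44 (2.39-fold), snR39 (1.96-fold), snR39B (1.66-fold) and snR18 (log2 0.59). The call of snR39B (log2 0.73, limma adjusted p = 0.0086) was lost without xrn1 replicate 2 (adjusted p = 0.0757) or dbp2 replicate 1 (0.0623). Rescaled on protein-coding genes all 9 were higher, with 44.2% of all features. Rescaled on the other snoRNAs snR191 was higher (0.972% of all features) and 6 box C/D members lower (95%).

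The controls themselves differed, by strain and doxycycline together, which cannot be told apart. In WT-Dox against WT, snR59 was higher, at 0.954 and 0.900 in WT-Dox and 0.546 and 0.443 in WT (1.85-fold, log2 0.89 ± 0.166, limma adjusted p = 0.0019), and so was snR24, at 3.27 and 4.02 in WT-Dox and 2.54 and 2.60 in WT (1.41-fold, log2 0.49 ± 0.118, limma adjusted p = 0.007). The call of snR24 was lost without WT-Dox replicate 2 (adjusted p = 0.0608). No member was called lower by limma, while of all features 10.4% were called higher and 30.6% lower. Rescaled on protein-coding genes 4 members were higher, with 21% of all features. Rescaled on the other snoRNAs 2 were higher, with 464 of the 9666 features higher and 310 lower. There snR24 lost its call (log2 0.70, limma adjusted p = 0.0895). At an unadjusted limma p under 0.05, 2 members were lower, snR44 (log2 -0.36, 0.0219) and snR54 (log2 -0.30, 0.0465), with 36.9% of all features, and 3 were higher, snR24, snR59 and snR39B (log2 0.59, 0.0211), with 12.8%. Limma with voom weights on read counts read back from the densities called snR44 lower (adjusted p = 0.0087) and snR39B higher (adjusted p = 0.00604), and with the 4 libraries alone snR39B was also called higher (adjusted p = 0.0252).

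Genes of the proteins that make snoRNAs were read as lists drawn from general knowledge. The shares of all features called higher were 91.4% in tet-MTR4-Dox, 84.7% in dbp2 and 94.9% in xrn1, and those called lower 3.26%, 5.28% and 0.89%. Relative to the protein-coding median, 63.6% were higher and 23.6% lower in tet-MTR4-Dox, 45.1% and 27.3% in dbp2, and 37.8% and 36.4% in xrn1. The counts of all lists are to be read against these shares. Of 9 genes of exosome-linked 3' trimming, 8 rose in tet-MTR4-Dox and MTR4 itself fell, with AIR2 and MPP6, cofactors of the exosome, up 3.25- and 3.07-fold. In dbp2 8 of the 9 rose, MPP6 3.07-fold, and in xrn1 all 9, with AIR2 6.43-fold. Relative to the protein-coding median, 5 were higher and 2 lower in tet-MTR4-Dox, 3 higher and 4 lower in dbp2, and 2 higher and 7 lower in xrn1. Of the 5 genes for debranching, cleavage and 5' trimming, DBR1 rose 7.06-fold in xrn1, 2.43-fold in dbp2 and 1.94-fold in tet-MTR4-Dox, and stayed higher relative to the protein-coding median in each (log2 0.88, 0.52 and 0.21). DBR1 did not stand out in dbp2 or tet-MTR4-Dox. RAI1 and RNT1 of the same list rose at least as much there, 2.56- and 2.47-fold in dbp2 and 2.18- and 2.11-fold in tet-MTR4-Dox. The list as a whole had 5 higher in tet-MTR4-Dox, 4 higher and 1 lower in dbp2, and 4 higher and 1 lower in xrn1, the lower one being XRN1 in both. Relative to the protein-coding median it had 3 higher and 2 lower in tet-MTR4-Dox, 3 higher and 2 lower in dbp2, and 1 higher and 4 lower in xrn1.

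The box C/D core and assembly list of 9 genes had 8 higher and 1 lower in tet-MTR4-Dox, 6 higher and 2 lower in dbp2, and 8 higher in xrn1. Relative to the protein-coding median these counts were 4 higher and 4 lower in tet-MTR4-Dox, 3 higher and 4 lower in dbp2, and 0 higher and 7 lower in xrn1. HIT1 and RSA1, which act in box C/D particle assembly, rose 2.98- and 2.57-fold in tet-MTR4-Dox, 3.47- and 3.42-fold in dbp2 and 3.78- and 3.72-fold in xrn1. NOP1, the methyltransferase, was the lower one in tet-MTR4-Dox (log2 -0.22), and is named here after its value was seen. Of the 6 box H/ACA genes, 6 rose in tet-MTR4-Dox, 5 in dbp2 and 6 in xrn1, with SHQ1, an assembly factor, at 2.22-, 1.99- and 4.11-fold. Relative to the median protein-coding gene the box H/ACA list split into 2 higher and 3 lower in tet-MTR4-Dox and in dbp2, and 0 higher and 5 lower in xrn1.

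For each member the feature of at least median density (0.394) with the most similar profile was named, by Pearson's r of log2 density over the 10 libraries, as a description. For 4 box C/D members it was another box C/D snoRNA, snR67 for snR18 (r 0.994), snR47 for snR39 (0.996), snR71 for snR54 (0.997) and snR76 for snR59 (0.992). For the others it was a noncoding transcript of the CUT or NUT rows, CUT234 for snR24 (0.970), CUT223 for snR38 (0.997), CUT015 for snR191 (0.977), NUT1051 for snR44 (0.951) and NUT1036 for snR39B (0.997). NUT1036 held more reads than snR39B in each library, 5467 and 7277 in tet-MTR4-Dox, where snR39B held 5098 and 6799, and 336 and 687 in WT-Dox, where snR39B held 284 and 596. Positions of these transcripts were not used here, so whether both rows count the same reads was not tested.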

How the data were processed

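Per the labels' protocols, hot-phenol total RNA was depleted of ribosomal RNA and sequenced from stranded libraries (TruSeq Stranded Total RNA kit). Tools named, per the submitters' processing notes, are featureCounts 2.0.0, DESeq2, Trim Galore and HISAT2 2.2.0, with the build R64, and their roles are not given. The deposited table holds 10 library columns of normalized signal per base for 10891 features, and 5 columns of group means that were not tested. Its values are whole reads times 1 factor per library over the feature's length (100% of rows above 0, within 0.02 reads). The scaling on ERCC sums is inferred from the values.

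With R 4.3.3 and limma 3.58.1, log2(density + 0.01875) was fitted over all 10 libraries for the 9666 of 10740 features with a mean density of at least 0.03442, with a variance trend (5 residual and 5.243 prior degrees of freedom) and Benjamini-Hochberg adjustment at 0.05. Fold changes are on that scale, which understates those of low features. The fit was also run on simulated counts whose spread was set by hand and not estimated from these libraries, so that run is no support for the calls. As the values are not counts, no count test was the main one. An SD of 2 libraries is imprecise. Alternatives were both pseudocount changes, no filter, voom on the recovered reads, 2 rescalings, the 4 libraries compared alone, each library left out, a replicate block and host rows without snoRNA reads. All members and hosts are named, of each list at most 3 called genes with the largest changes per comparison, the most similar feature per member, and the extremes of each snoRNA class. The members and lists were chosen with earlier results of these data known. Sequences were read with Python 3.11.15 and Biopython 1.88, and tables and figures made with numpy 2.4.6, pandas 2.3.3 and matplotlib 3.10.9.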

Additional observations from a re-analysis of the deposited data

How the results depend on the processing

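Of 109 values and counts, all 109 kept direction and call with a pseudocount 4 times larger, 4 times smaller, and without a filter on low values. Rescaling turned many directions, and the cause of those changes was not tested beyond the rescaling itself. On the median protein-coding gene, log2 changes turned round in xrn1 against WT for snR24 (-1.995), snR38 (-1.41), snR39 (-1.85), snR59 (-1.09) and the rows of EFB1 (-1.75), ASC1 (-1.79), TEF4 (-0.60), RPL7A (-1.81), RPS22B (-1.62), IMD4 (-0.22), RPL7B (-0.45) and NOG2 (-1.46). In dbp2 against WT they did for snR18 (-0.67), snR24 (-0.69), snR38 (-0.28), snR39B (-0.22), snR54 (-0.81), snR59 (-0.13) and RPL7A (-0.72), and in tet-MTR4-Dox against WT-Dox for snR24 (-0.061), snR44 (-0.43), snR191 (-0.15), EFB1 (-0.67) and NOG2 (-0.0076). In WT-Dox against WT they did for snR191 (0.051), RPL7A (0.10) and NOG2 (0.12), and in dbp2 against xrn1 for snR38 (1.13) and snR59 (0.96).

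Rescaled on the other snoRNA rows, they turned round in xrn1 against WT for snR39B (0.20), snR54 (0.20) and snR44 (0.24), in dbp2 against WT for snR18 (-0.98), snR24 (-0.9996), snR38 (-0.58), snR39B (-0.53), snR54 (-1.12), snR59 (-0.43), RPL7A (-1.03) and RPS22B (-0.046), and in tet-MTR4-Dox against WT-Dox for snR18 (-0.22), snR24 (-1.92), snR44 (-2.30), snR191 (-2.01), EFB1 (-2.53), RPS22B (-1.62), RPL7B (-1.50) and NOG2 (-1.87). In WT-Dox against WT they did for snR191 (0.12), RPL7A (0.16) and NOG2 (0.18), and in dbp2 against xrn1 for snR18 (-0.87), snR24 (-1.34), snR39 (-0.49), snR39B (-0.73), snR54 (-1.32) and snR44 (-0.21). The tet-MTR4-Dox effect minus that of dbp2 turned for snR24 (-0.92), and minus that of xrn1 for snR18 (-0.11), snR24 (-2.26), snR38 (-0.44), snR44 (-2.54) and snR191 (-2.01).

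Counts of members called moved on protein-coding genes to 0 higher and 9 lower in xrn1, 1 higher and 4 lower in dbp2, 1 lower in tet-MTR4-Dox, 4 higher in WT-Dox against WT and 9 higher in dbp2 against xrn1. On the other snoRNAs they moved to 0 lower in xrn1, 0 higher and 3 lower in dbp2, 4 higher and 3 lower in tet-MTR4-Dox, 1 higher and 6 lower in dbp2 against xrn1, and 1 higher and 3 lower for the tet-MTR4-Dox effect minus the xrn1 effect. Lower calls in WT-Dox against WT numbered 1 with voom and 2 with the 4 libraries alone. snR54 in dbp2 against WT was at -0.019 with voom. Without snoRNA reads, EFB1 in tet-MTR4-Dox was at -0.020 and NOG2 in WT-Dox against WT at 0.14.

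With each library left out in turn, the counts were 2 to 2 higher and 2 to 2 lower in xrn1, 5 to 6 higher in dbp2, 8 to 9 higher in tet-MTR4-Dox, 1 to 3 higher and 0 to 1 lower in WT-Dox against WT, and 4 to 5 higher and 0 to 1 lower in dbp2 against xrn1. Where a group then had 1 library, it was assumed to vary like the others. Log2 changes ran from -0.15 to 0.17 for snR24, -0.42 to 0.15 for snR39B and -0.29 to 0.090 for snR44 in xrn1 against WT, -0.12 to 0.12 for snR54 in dbp2 against WT, -0.019 to 0.040 for ASC1 in WT-Dox against WT, and -0.045 to 0.27 for snR24 and -0.42 to 0.018 for snR59 in dbp2 against xrn1.

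Same-numbered libraries of different groups did not deviate together (correlations of -0.0823 to 0.0782 over 10 pairs of groups), so no pairing was put in the main fit. These correlations cannot tell whether same-numbered libraries were grown or prepared together. With a replicate block 107 of 109 results were as before. snR54 in WT-Dox against WT gained a call (-0.30, limma adjusted p = 0.0492), which made that count 1 lower. Read numbers limit snR59 most outside tet-MTR4-Dox, where it had 46 to 87 reads.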
